A study of Mus musculus with 5 samples.

Results

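The core binding factors Runx1, Runx2, Runx3 and Cbfb and the Myb family members Myb, Mybl1 and Mybl2 were followed across 2 progenitor populations of mouse marrow. Members were all probe sets of the expression table whose platform annotation gives exactly 1 gene symbol and whose symbol is 1 of these 7. This took 16 of 45037 probe sets, for 6 of 18193 named genes, with 6 sets of Runx1, 2 of Runx3, 1 of Cbfb, 3 of Myb, 2 of Mybl1 and 2 of Mybl2, while Runx2 had no probe set named here. The common dendritic cell progenitor (CDP, 3 arrays) was sorted as Lin-, c-kit intermediate, Sca-1-, CD34+, Flk2+, CD16/32- and CD115+. The common myeloid progenitor (CMP, 2 arrays) was sorted as Lineage-, c-kit high, Sca-1-, CD11c-, CD34+, Flk2+, CD16/32- and CD115-. Both came from wild type C57BL/6 bone marrow, without any treatment in the labels, and the animals' age and number are not given. The series' title concerns IRF-8 and dendritic cell commitment, so the question here is whether these factors differ between the progenitor of dendritic cells and the earlier myeloid progenitor.

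Runx proteins bind DNA through their Runt domain, and Cbfb is their shared partner, which does not bind DNA itself but holds the complex on its site. Runx1 is needed for the first blood stem cells of the embryo and for megakaryocytes, Runx2 is the master factor of bone that is also used by plasmacytoid dendritic cells, and Runx3 serves cytotoxic T cells and Langerhans cells. Myb keeps blood progenitors immature and dividing and is shut down as they mature, Mybl1 (A-Myb) drives meiosis in the testis, and Mybl2 (B-Myb) switches on mitotic genes in dividing cells together with the MuvB complex.

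Values are log2 expression as the authors deposited them, and differences are CDP minus CMP with the standard error (SE) of the fit. Log2 5 was taken as the detection level. A probe set was tested if it reached this level on 2 or more of the 5 arrays, and it was called at an adjusted p under 0.05 in limma. Levels of different probe sets were not set against each other, since each has its own probes. Between 34.0% and 35.8% of probe sets were detected per array. The 3′ minus 5′ gap of the beta-actin control, a sign of how far RNA was copied towards its 5′ end, was 8.05 on CDP 1, 2.12 on CDP 2 and 4.48 on CDP 3, against 7.35 on CMP 1 and 1.81 on CMP 2. Because of this gap, differences are also given within the pair CDP 1 and CMP 1, called the low-5′ arrays here, and between the remaining arrays. The same gap of the Gapdh control was 4.64, 3.88 and 6.60 on CDP 1, 2 and 3, against 4.71 and 3.22 on CMP 1 and 2. It was widest on CDP 3, so the split into these kinds of array rests on beta-actin alone. Genes of mature neutrophils were seen on CDP 2 alone, with 8 of 9 markers at or above log2 5 there and 0 of 9 on each other array. All 8 T and NK cell markers lay below log2 5 on every array. Whether this bears on the values below was not tested, except where results without CDP 2 are given. No label ties an array to an animal, so the spread behind the p-values may be technical. In sorted populations measured in bulk, fewer cells expressing a gene and less RNA per cell cannot be told apart.

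Of the 16 probe sets, 11 were tested, at least 1 each of Runx1, Runx3, Cbfb, Myb and Mybl2, and all 11 were detected on all 5 arrays in both populations. None passed the threshold (limma, adjusted p from 0.12 to 0.861), where 1.73% of all 16552 tested probe sets did (1.31% higher and 0.423% lower in CDP), and 2 had an unadjusted p under 0.05, against 15.9% of all tested. The clearest separation was that of Myb, lower in CDP on every array of each of its 3 probe sets, together with 1 probe set of Runx1. Runx3, Cbfb and Mybl2 had overlapping values in both populations. Mybl1 was below detection throughout.

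**Figure D1:**
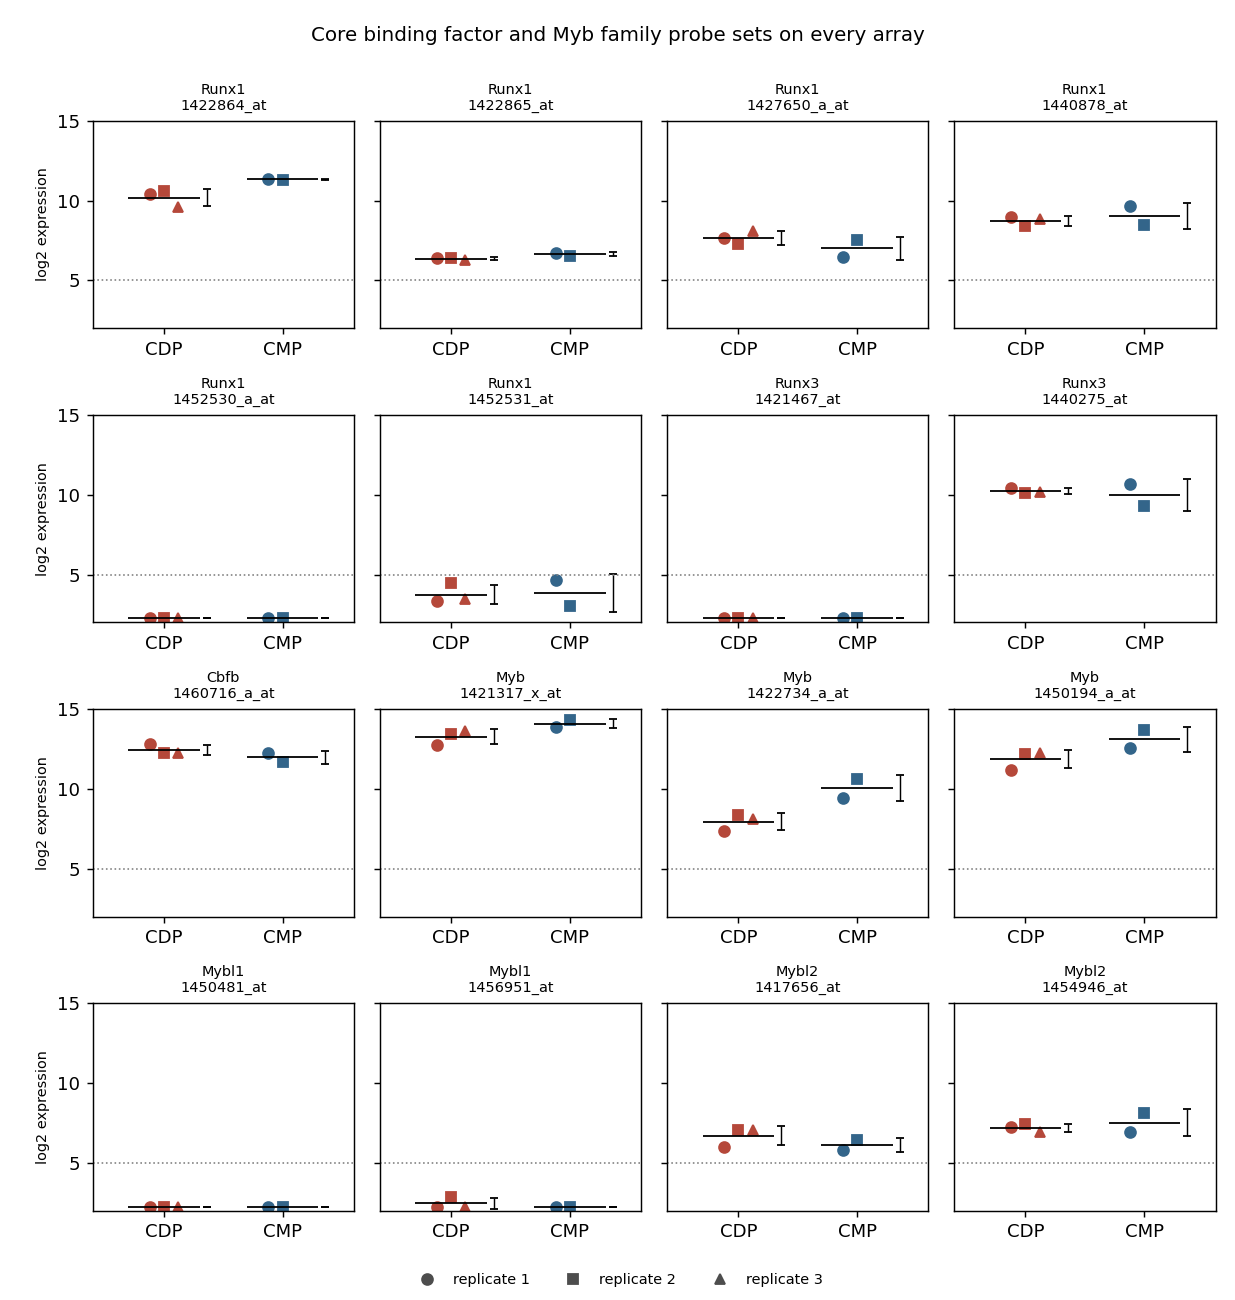
Log2 expression (y axis) of the 16 probe sets on the 3 CDP and 2 CMP arrays, with a point per array, a line at the group mean, a bar for the SD and a dotted line at log2 5. The 3 Myb panels, Runx1 1422864_at and, by only 0.12, Runx1 1422865_at show every CDP point below every CMP point, and 5 panels lie below log2 5 on all arrays.

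Runx1 (chromosome 16) was measured by 6 probe sets, and 4 of them were detected. On 1422864_at its log2 level was 10.38, 10.60 and 9.58 on CDP 1, 2 and 3, against 11.36 and 11.31 on CMP 1 and 2. All 3 CDP arrays lay below both CMP arrays, by at least 0.71. The difference was -1.15 ± 0.40 (SE), or 2.22-fold less in CDP, with a 95% interval of the fit from -2.13 to -0.17 and an adjusted p of 0.247. It was -0.98 between the low-5′ arrays and -1.22 between the others. With a block for these 2 kinds of array it was -1.12 ± 0.37 (limma, adjusted p = 0.113).

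The other detected Runx1 probe sets had fitted differences that were smaller or of the opposite sign. Probe set 1422865_at had 6.40, 6.42 and 6.26 in CDP, against 6.73 and 6.55 in CMP, a difference of -0.28 ± 0.30 (adjusted p = 0.728) with groups that did not overlap but lay only 0.12 apart. Probe set 1440878_at had 8.97, 8.38 and 8.84 in CDP, against 9.63 and 8.46 in CMP. Its groups overlapped, its difference was -0.32 ± 0.45 (adjusted p = 0.80), and the sign was -0.66 between the low-5′ arrays but 0.15 between the others. Probe set 1427650_a_at had a positive difference, with 7.64, 7.25 and 8.12 in CDP, against 6.50 and 7.51 in CMP, a difference of 0.67 ± 0.45 (adjusted p = 0.546). The suffix "_a" marks sets that match several transcripts of a gene.

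Whether Runx1 probe sets differed from each other was tested on their within-array differences, over all 10 ways to pick 3 of the 5 arrays as CDP, where 0.1 is the smallest p possible. The change on 1422864_at lay 0.87 below that on 1422865_at (exact permutation, 2-sided p = 0.1) and 1.82 below that on 1427650_a_at (exact permutation p = 0.2). Over the 10 pairs of probe sets of 1 gene (6 of Runx1, 3 of Myb and 1 of Mybl2) the lowest adjusted exact p was 0.333. With 0.1 as its smallest p, this test cannot settle whether the Runx1 probe sets differ. The remaining Runx1 probe sets, 1452530_a_at at 2.27 on all 5 arrays and 1452531_at between 3.01 and 4.69, lay below detection.

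The Runx genes have a distal and a proximal start, which give proteins with different first residues, and the array sets above are not assigned to either start here. The windows of 250 bases before to 50 after a start, from RefSeq (GRCm38.p6), cover 8 starts of 6 of the 7 members, with none for Mybl1. They were searched on both strands for AACCACA, the core site that Runx proteins bind. The stretches shown hold the longest run of letters that the Runx1 and Runx3 distal windows and the Runx2 window share, 18 bases with 2 copies of AACCACA, and are given for that shared run. Capitals mark the shared run, printed on the strand of the gene.
Runx1 distal start, chr16:92826025-92826054, minus strand: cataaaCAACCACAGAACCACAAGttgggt
Runx2, chr17:44814583-44814612, minus strand: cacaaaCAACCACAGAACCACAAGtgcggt
Runx3 distal start, chr4:135120503-135120532, plus strand: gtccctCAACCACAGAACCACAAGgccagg

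The shared run began at base 27 of the Runx1 transcript, at base 22 of the Runx2 transcript and at position -136 from the distal start of Runx3. The core AACCACA was found in 5.27% of 32851 such windows, and the whole run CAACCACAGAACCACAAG in 4 of them (0.0122%). These were the windows of the 3 Runx genes and that of Gm16225, a predicted gene whose window overlaps the Runx3 one on the opposite strand. The proximal windows of Runx1 and Runx3 held no AACCACA. The run was taken from the Runx windows themselves, so its presence in them was fixed in advance. The core was chosen after the sequences were seen, and a match is no evidence of binding in these cells.

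Runx3 (chromosome 4) was detected on 1440275_at, with 10.43, 10.08 and 10.19 in CDP, against 10.70 and 9.27 in CMP. The CDP values lay between the 2 CMP values. The difference was 0.25 ± 0.48 (limma, adjusted p = 0.861), with a 95% interval from -0.92 to 1.43. It was -0.26 between the low-5′ arrays and 0.87 between the others, and became -0.46 without CMP 2, so no direction can be given. The second set, 1421467_at, was at 2.26 on all 5 arrays. The 2 sets thus gave opposite answers on whether Runx3 transcript was seen at all.

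Cbfb (chromosome 8), the shared partner, was at 12.81, 12.26 and 12.25 in CDP, against 12.27 and 11.69 in CMP. The groups overlapped by 0.02, since CMP 1 stood just above CDP 2 and CDP 3. The difference of 0.46 ± 0.37 did not pass (adjusted p = 0.618, 95% interval from -0.44 to 1.36). It was alike within both kinds of array, at 0.54 between the low-5′ arrays and 0.57 between the others. Cbfb had a single probe set, so no second reading of it exists here.

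Myb (chromosome 10) had the largest differences of the family. On 1422734_a_at it was at 7.37, 8.37 and 8.10 in CDP, against 9.45 and 10.61 in CMP. Every CDP array lay below every CMP array, by at least 1.08. The difference was -2.08 ± 0.50 (SE), 4.24-fold less in CDP, with a 95% interval from -3.29 to -0.87. Its unadjusted p of 0.00551 became 0.12 after adjustment over all tested probe sets. Only 0.942% of all tested probe sets had a lower difference.

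On 1450194_a_at Myb was at 11.20, 12.17 and 12.22 in CDP, against 12.55 and 13.66 in CMP, a difference of -1.24 ± 0.51 (adjusted p = 0.314, 95% interval from -2.48 to 0.00022). On 1421317_x_at it was at 12.74, 13.44 and 13.61 in CDP, against 13.88 and 14.30 in CMP, a difference of -0.82 ± 0.39 (adjusted p = 0.383, 95% interval from -1.78 to 0.14). Both again had all CDP arrays below all CMP arrays, by at least 0.33 and 0.27. The suffix "_x" marks sets that may also match other transcripts. The mean of the 3 Myb sets differed by -1.38 ± 0.44 (limma over gene means, adjusted p = 0.165). In the same fit the mean of the tested Runx1 sets differed by -0.27 ± 0.28 (adjusted p = 0.666). That of the Mybl2 sets differed by 0.13 ± 0.40 (adjusted p = 0.895). The difference on 1422734_a_at lay 1.26 below that on 1421317_x_at and 0.84 below that on 1450194_a_at (exact permutation, 2-sided p = 0.1 each, the smallest possible, and 0.333 adjusted over the 10 pairs), a test that cannot settle whether the sets differ in size.

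CDP 1 was the lowest CDP array and CMP 1 the lower CMP array on all 3 Myb sets. These are the low-5′ arrays and also both arrays with replicate number 1, which cannot be told apart for them. Among the others, CDP 2 had more 5′ beta-actin than CDP 3 (12.97 against 10.52), and its Myb level was higher on 1422734_a_at but lower on the other 2 sets. Within the low-5′ arrays the differences were -2.08, -1.35 and -1.14 on 1422734_a_at, 1450194_a_at and 1421317_x_at, and between the other arrays -2.37, -1.46 and -0.77. With a block for the 2 kinds of array, 2 of the 3 Myb sets were called lower in CDP, 1422734_a_at at -2.25 ± 0.27 (limma, adjusted p = 0.0085) and 1450194_a_at at -1.41 ± 0.25 (adjusted p = 0.0248). The third, 1421317_x_at, was at -0.93 ± 0.27 (adjusted p = 0.0839). That block gave calls on 8.69% of all tested probe sets, and calls of lower CDP on 2.5%. No other member passed with it. The block was chosen with earlier results of these data known. It rests on beta-actin alone, while the Gapdh gap was widest on CDP 3.

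Myb and Mybl2 are both genes that E2F factors are known to control, and E2F sites carry the core GGCGGGA. A search of both strands found it in the windows of Myb, Mybl2 and Cbfb, and these stretches are shown since Myb and Mybl2 share the 10 letters TTGGCGGGAG there, as long as any run common to their windows (GCGCGCCAGG is as long). Capitals mark the core.
Myb, chr10:21160976-21161004, minus strand: gcgccagatttGGCGGGAgggggagtgtc
Mybl2, chr2:163054611-163054639, plus strand: ccgacgcacttGGCGGGAgataggaaagt
Cbfb, chr8:105170640-105170668, plus strand: ggccggcgcggGGCGGGAgagcgaggagg

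The core began at position -9 from the start of Myb, -13 from that of Mybl2 and -23 from that of Cbfb. It was found in 11.3% of the 32851 windows, so it is common, and it was chosen after the sequences were seen.

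Mybl2 (chromosome 2) was detected by both of its probe sets, with fitted differences of opposite sign. On 1417656_at it was at 6.00, 7.05 and 7.08 in CDP, against 5.78 and 6.43 in CMP, a difference of 0.61 ± 0.46 (adjusted p = 0.599). On 1454946_at it was at 7.21, 7.40 and 6.93 in CDP, against 6.91 and 8.13 in CMP, a difference of -0.34 ± 0.45 (adjusted p = 0.788). The groups overlapped on both sets. The 95% intervals ran from -0.52 to 1.74 and from -1.43 to 0.75, so a difference in either direction lies within them. On 1454946_at the sign was 0.30 between the low-5′ arrays and -0.96 between the others. The 2 differences lay 0.94 apart (exact permutation p = 0.3). Mybl1 (chromosome 1) lay below detection on both of its sets, at 2.26 on every array of 1450481_at and between 2.26 and 2.84 on 1456951_at.

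**Figure D2:**
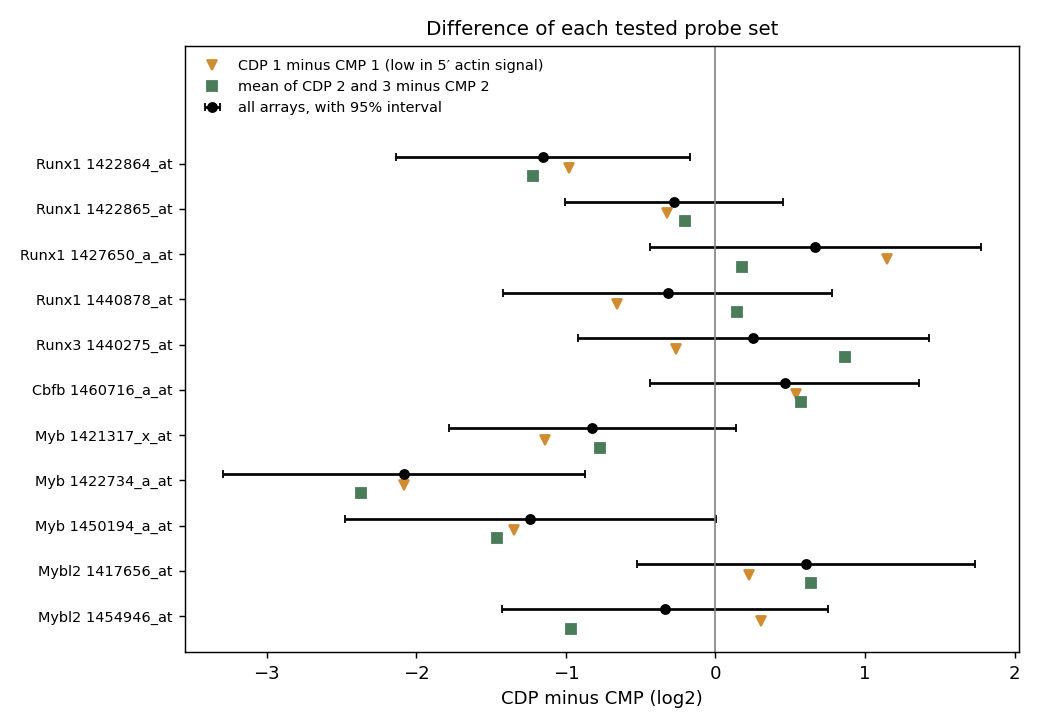
CDP minus CMP in log2 units (x axis) for the 11 tested probe sets, with the 95% interval of the fit over all 5 arrays (black) and the values between the low-5′ arrays (orange) and between the others (green). The 3 Myb sets and Runx1 1422864_at and 1422865_at have all their points left of 0. The intervals of Myb 1450194_a_at and 1421317_x_at and of Runx1 1422865_at reach 0. Runx3, Runx1 1440878_at and Mybl2 1454946_at have orange and green points on opposite sides of 0.

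Over the 11 tested probe sets, 7 differences were negative and 4 positive, with a median of -0.32, where the median over all tested probe sets was 0.12. On 5 of the 11 (45.5%), 3 of Myb and 2 of Runx1, all CDP arrays lay below all CMP arrays, against 11% of all tested probe sets, and on none did all CDP arrays lie above, against 21.2%. Differences of -1 or lower were found on 3 of the 11 (27.3%), against 6.44% of all. Sets of 1 gene read the same RNA, so these are counts over 2 genes rather than 5 separate ones. Scaling the arrays again by quantiles or to the median of tested probe sets left every sign as it was, with 1422734_a_at of Myb at -2.16 and -2.21.

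The genes that work with these factors or are known as their targets were taken from general knowledge, some of it from human cells, in 6 lists without the members themselves. The lists overlap, with Lmo2, Cdk6, Mpo, Kmt2a, Ep300, Crebbp, Cebpb and Ets2 each in more than a single list. Counts of different lists are thus not all over separate genes. The lists were chosen with earlier results of these data known. Each gene was read on its brightest tested probe set. Over all 8449 tested genes, 1.67% were called higher and 0.473% lower in CDP, 60.6% of differences were positive and their median was 0.17.

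Among RUNX cofactors and regulators, 25 of 32 genes were tested, and 1 was called lower in CDP (4%, against 2.14% of all genes called either way). This was Gata2, a factor of stem and mast cells that acts with Runx1 in early blood, at 5.55, 5.31 and 5.31 in CDP, against 8.60 and 7.71 in CMP (-2.77 ± 0.38, adjusted p = 0.0349). Of the tested markers of mast cells and basophils and of stem cells, 3 were called lower in CDP as well, where 0.473% of all genes were. The other tested markers, Mcpt8, Hlf, Meis1, Procr, Hoxa9 and Cd48, were not called. Cd48 went the other way, at 1.57 ± 0.48 with all CDP arrays above all CMP arrays (limma, adjusted p = 0.20). Of 7 mast cell and basophil markers 1, 2 and 1 were detected on CDP 1, 2 and 3, against 3 on each CMP array, with Ms4a2, Fcer1a, Tpsb2 and Cma1 below log2 5 on all 5 arrays. Hdc, which makes histamine, and Cpa3, a mast cell protease, were called lower in CDP (limma, adjusted p = 0.0217 and 0.0346). Both adjusted p are on the values as deposited. With values under 5 set to 5, Hdc was lower by at least 22.1-fold and Cpa3 by at least 5.68-fold. Of 10 stem and multipotent progenitor markers 5, 4 and 5 were detected in CDP, against 7 and 6 in CMP. With values under 5 set to 5, the growth factor gene Angpt1 was lower in CDP by at least 20.2-fold (adjusted p = 0.0244 on the values as deposited). Their part in the Gata2 result was not tested. The adaptor Lmo2 had -1.08 ± 0.33 (adjusted p = 0.197) and the corepressor Cbfa2t3 1.13 ± 0.40 (adjusted p = 0.253), neither called. The list held 12 positive and 13 negative differences, with a median of -0.11. The groups lay apart with CDP higher for 6 genes and lower for 4, against 23.7% and 10.8% of all genes.

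Among RUNX target genes, 16 of 33 were tested, with 1 called higher, 1 lower and 14 not called (12.5% called, against 2.14% of all genes). Ccr2, the chemokine receptor of monocytes, was at 10.55, 10.98 and 10.89 in CDP, against 8.89 and 8.72 in CMP (2.00 ± 0.32, adjusted p = 0.0456). Pf4, a platelet chemokine, lay below log2 5 on all CDP arrays against 5.77 and 5.72 in CMP. With values under 5 set to 5 it was lower in CDP by at least 1.68-fold (adjusted p = 0.045 on the values as deposited). Both calls were close to the threshold. Ccr2 was at an adjusted p of 0.0537 with quantile and 0.0552 with median scaling, and Pf4 at 0.0673 with a trended variance and 0.0611 with array weights (limma). With the filter at log2 4 both were at 0.052, and over all settings the adjusted p ran between 0.0126 and 0.265 for Ccr2 and between 0.0106 and 0.241 for Pf4, which was not tested with the filter at log2 7. Of 7 megakaryocyte markers, Pf4 among them, 0, 1 and 1 were detected on CDP 1, 2 and 3, against 2 on each CMP array. Gp1bb, Gp9, Ppbp, Vwf and Gp5 lay below log2 5 on all 5 arrays. The marker Itga2b, also in this list, had -1.11 ± 0.38 (adjusted p = 0.235). Their part in the Pf4 result was not tested. Gfi1, a repressor needed by neutrophils, had -3.20 ± 0.59 (adjusted p = 0.0628) and the integrin chain Itgb2 3.13 ± 0.64 (adjusted p = 0.0849), neither called. The list had 8 positive and 8 negative differences and a median of -0.0039. All CDP arrays lay above all CMP arrays for 5 of the 16 genes and below them for 7, against 23.7% and 10.8% of all genes, and 9 had an unadjusted p under 0.05, against 17.1%. With the block for 5′ signal 8 genes were called, 5 higher (Ccr2, Itgb2, Csf1r, Csf2rb and Itgal) and 3 lower (Gfi1, Pf4 and Cebpa), against 9.76% of all genes (7.1% higher and 2.66% lower), and these names were picked after their values were seen. Csf1r encodes CD115, on which the populations were sorted.

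Among MYB cofactors and regulators, 17 of 19 genes were tested and limma called 0 of them, with 1 at an unadjusted p under 0.05 against 17.1% of all genes. Cebpb, a factor of myeloid cells, had a difference of 1.30 ± 0.97 (adjusted p = 0.589). Kat5, an acetyltransferase, was at 5.02, 7.04 and 6.90 in CDP, against 3.31 and 6.37 in CMP, so that CMP 1 lay below detection and the groups overlapped. With values under 5 set to 5, its group means lay 1.55-fold apart, with CDP higher (adjusted p = 0.56 on the values as deposited). All CDP arrays lay above all CMP arrays for 2 of the 17 genes and below them for 2, against 23.7% and 10.8% of all genes. The coactivators Crebbp and Ep300, which Myb binds, had 0.37 and 0.60, picked here for their role.

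Among MYB target genes, 19 of 28 were tested and 1 was called (5.26%, against 2.14% of all genes). This was the receptor gene Kit, lower in CDP. It was at 7.75, 7.18 and 7.70 in CDP, against 10.04 and 10.20 in CMP (-2.57 ± 0.34, adjusted p = 0.0318), and the populations were sorted on its protein, c-kit. Myc, a growth factor response gene, was at 8.10, 7.94 and 8.69 in CDP, against 9.93 and 10.21 in CMP (-1.82 ± 0.37, adjusted p = 0.081). Ccne1, cyclin E1, had a positive difference (1.42 ± 0.31, adjusted p = 0.0959). The list had 13 negative and 6 positive differences and a median of -0.36. For 9 of its 19 genes all CDP arrays lay below all CMP arrays and for 3 above, against 10.8% and 23.7% of all genes. With the block for 5′ signal 4 of the 19 were called, Kit, Myc and Cd34 lower and Ccne1 higher, against 2.66% and 7.1% of all genes. CD34 is part of the sorting gate as well, but both populations were sorted as CD34+.

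Of 18 tested MuvB, DREAM and B-Myb partners limma called 0, with 4 at an unadjusted p under 0.05 against 17.1% of all genes, and 15 of 18 differences were positive with a median of 0.57. All CDP arrays lay above all CMP arrays for 8 of the 18 and below them for 1, against 23.7% and 10.8% of all genes. The 2 probe sets of Mybl2 itself had 0.61 and -0.34. E2f2, an activating E2F factor, was at 9.23, 10.12 and 9.31 in CDP, against 7.34 and 7.83 in CMP (1.97 ± 0.41, adjusted p = 0.0859). E2f1 was the gene that lay below, with a difference of -1.41 ± 0.60 (limma, adjusted p = 0.327). E2f3 had -0.25 and E2f5 0.58, and these were picked as further E2F genes of the list. Foxm1, which takes over from B-Myb on mitotic genes, was at 6.19, 8.11 and 8.26 in CDP, against 4.86 and 6.16 in CMP (2.01 ± 0.75, adjusted p = 0.272), with CMP 1 just below detection. E2f2 lay apart between the populations, and so did Foxm1, though CDP 1 stood only just above CMP 2. With the block for 5′ signal 4 of the 18 were called higher, against 7.1% of all genes. These were E2f2, Rb1, Ccnf and Foxm1, named after their values were seen.

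All 29 tested B-Myb and FOXM1 target genes, which build the spindle and drive mitosis, had positive differences, with a median of 1.15 against 0.17 over all genes. For 24 of the 29 all CDP arrays lay above all CMP arrays, against 23.7% of all genes. Of the 29, 1 was called (3.45%, against 2.14% of all genes called either way). This was Kif23, a kinesin of cell division, at 11.77, 11.96 and 11.69 in CDP, against 9.42 and 9.85 in CMP (2.17 ± 0.32, adjusted p = 0.0407). Nusap1, a spindle protein, had 1.83 ± 0.34 (adjusted p = 0.0641) and the cyclin Ccnb2 1.94 ± 0.38 (adjusted p = 0.075). With the block for 5′ signal 8 of the 29 were called, all higher, against 7.1% of all genes called higher. Genes of the mitotic program are known to vary together in dividing cells, so they are not separate readings. Leaving out any 1 of the 5 arrays, which also removed most or all calls of the whole table, left 0 genes called by limma in each of the 6 lists, with 0 to 22 per list at an unadjusted p under 0.05.

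**Figure D3:**
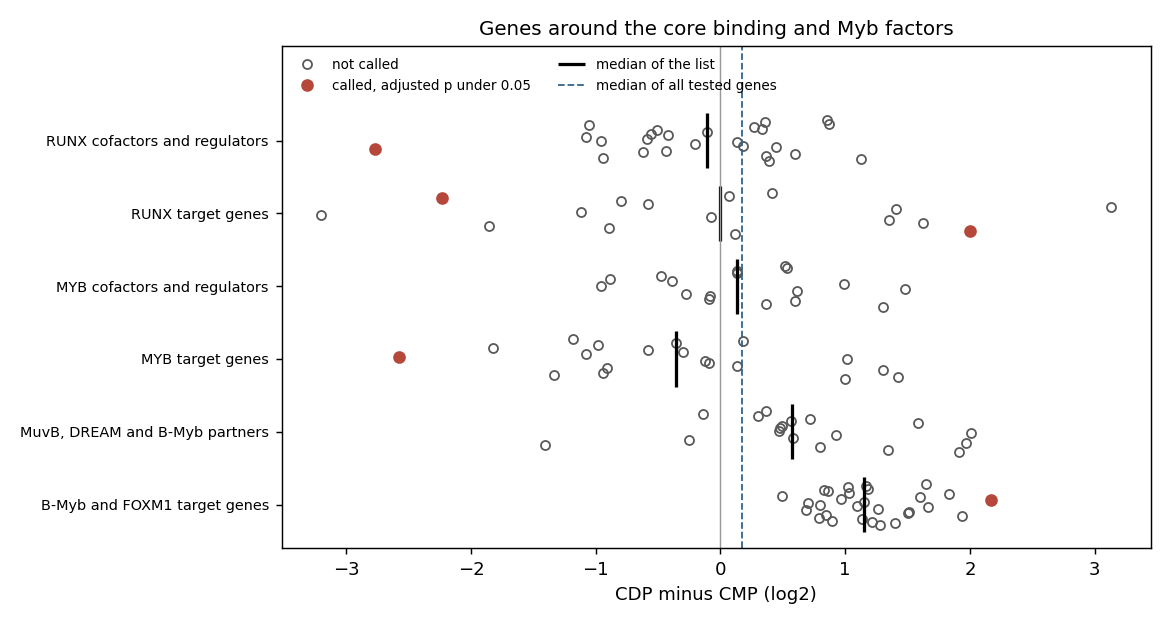
CDP minus CMP in log2 units (x axis) of each tested gene in the 6 lists, with called genes filled, a black line at each list's median and a dashed line at the median of all tested genes (0.17). The B-Myb and FOXM1 targets all lie right of 0 around 1.15, and the MYB targets lie mostly left of it around -0.36.

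**Figure D4:**
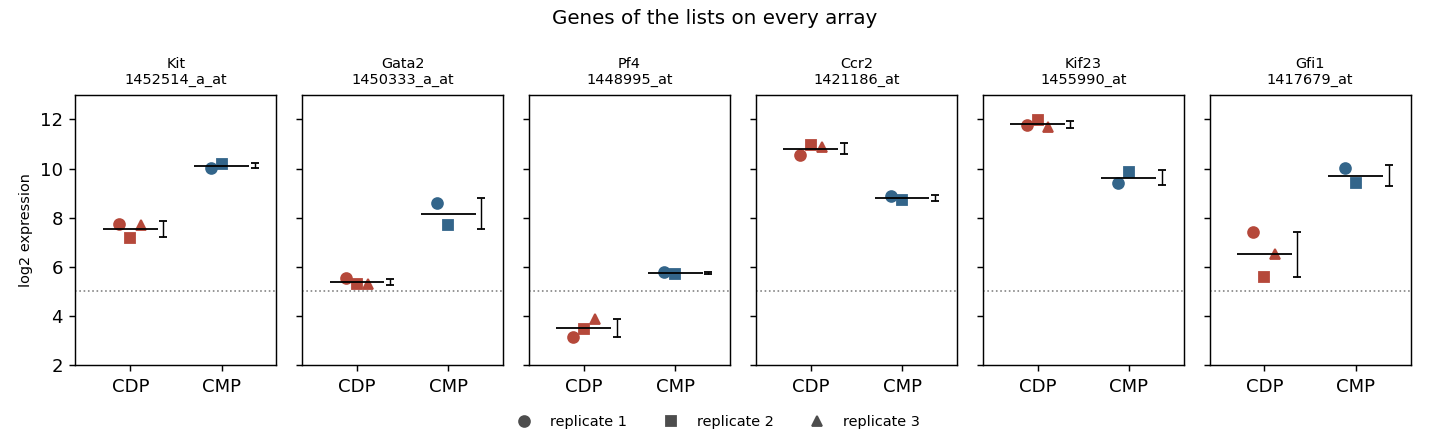
Log2 expression (y axis) of the 5 called list genes and of Gfi1, which was not called, on the 3 CDP and 2 CMP arrays, with group means, SD bars and a dotted line at log2 5. Kit, Gata2 and Pf4 are lower in CDP and Ccr2 and Kif23 higher, without overlap.

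Genes with the most similar profile were sought for each member whose brightest tested set spanned at least 1 log2 unit, by the root mean square difference of values over the 5 arrays after centring each gene on its own mean. Nearest to Runx1 1422864_at were Slc25a37, a mitochondrial iron carrier (0.0546), Mxd1 (0.14) and Wipi2 (0.192). Nearest to Myb 1421317_x_at were Ddx1 (0.0508), Nipsnap1 (0.0586) and Gpr65 (0.114). Cbfb lay nearest to Usp1, a deubiquitinase (0.0306), Hmgxb3 (0.0463) and Cenpq, a centromere protein (0.057). Runx3 lay nearest to Zfp91 (0.0683), Fam20b (0.0836) and Tprgl (0.0848), and Mybl2 1454946_at nearest to Blvra (0.0712), Slc39a11 (0.0765) and Znhit1 (0.0851). These genes were the nearest of 8449 over only 5 arrays, and none of the 15 was called between CDP and CMP (adjusted p from 0.203 to 0.83). They were picked for profiles close to those of members that were not called, so this lack of calls largely follows from the choice.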

How the data were processed

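The authors deposited log2 values for 45037 probe sets and 64 controls from 5 Affymetrix mouse arrays. RNA was amplified over 2 cycles, per the labels' protocols, and the authors used GCRMA, per the submitters' processing notes, with no version given in the sources used here. Groups and replicate numbers came from sample titles; that of CDP 3 has the prefix CM instead of BM, with CDP as its cell type label. The platform annotation gave 1 symbol to 34945 probe sets, several to 932 and none to 9160. RefSeq (GRCm38.p6) changed 0 symbols and gave chromosomes and sequences.

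The 2 populations were compared with limma 3.58.1 in R 4.3.3 (lmFit and eBayes, 2-sided, 3 residual degrees of freedom, no block), with Benjamini-Hochberg adjustment over the 16552 probe sets that passed the filter. Genes named from each list were the called ones, up to 4 by smallest p, and up to 2 further ones with the largest difference. The members and lists were chosen with earlier results of these data known. The procedure was tested on simulated data. Alternatives were other scalings, filters and variance models, blocks, and leaving out each array. The number of arrays limits the precision.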

Additional observations from a re-analysis of the deposited data

How the results depend on the processing

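Of the 11 tested member probe sets, limma called 0 in 15 of 17 alternative settings, with 1 to 4 at an unadjusted p under 0.05, and 0 in every setting that left out 1 array. The replicate number as a block called 1, Myb 1422734_a_at at -2.16 ± 0.32 (adjusted p = 0.0309), and the block for 5′ signal called 2, Myb 1422734_a_at (-2.25) and Myb 1450194_a_at (-1.41). Same-numbered arrays share only a number in the labels. Across tested probe sets their deviations from the group means correlated at 0.606 (CDP 1 and CMP 1) and 0.579 (CDP 2 and CMP 2). With only 2 CMP arrays, the deviations of CMP 1 and CMP 2 are exact opposites, so the correlations are not separate readings. CDP 1 and CMP 1 are also the low-5′ arrays, so these values cannot show that the numbers pair arrays. Signs turned for 3 probe sets. Mybl2 1454946_at ran from -0.95 to 0.27 when 1 array was left out, Runx3 1440275_at from -0.46 to 0.97 and Runx1 1440878_at from -0.90 to 0.27, the last also at 0.15 on the arrays other than CDP 1 and CMP 1. The other 8 kept their sign in every setting that tested them.

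Calls over the whole table were 287, against 55 with no filter, 608 with the replicate block, 1438 with the block for 5′ signal, 0 on the arrays other than CDP 1 and CMP 1 alone (4768 at an unadjusted p under 0.05) and 0 to 44 when 1 array was left out. Of RUNX target genes 0 to 3 were called in settings without a block, with 1 under either scaling (Pf4), 5 with the replicate block and 8 with the block for 5′ signal. B-Myb and FOXM1 targets had 3 and 8 with these blocks and 2 on gene means, MYB targets 2, 4 and 2, and MuvB partners 1, 4 and 1. All lists had 0 calls when 1 array was left out, when CDP 1 and CMP 1 were, and, but for 1 B-Myb target, without a filter. The cause was not tested.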
